A study of Mus musculus with 25 samples.

Results

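The genes described here are 9 members of the EGF receptor family and its ligands, the receptors Egfr, Erbb2 and Erbb3 and the ligands Tgfa, Hbegf, Areg, Ereg, Btc and Egf. They were taken by symbol from 2 tables of normalized read counts, each of which lists 24015 genes, and all 9 occurred in both. One table holds mouse basal cell carcinomas, and the other holds cultured ASZ001 cells, described in the labels as resistant basal cell carcinoma cells. The tumour libraries are 4 from resistant and 4 from sensitive tumours. All tumours came from C57BL6 mice that were Ptch+/- and p53 fl/fl and carried K14 Cre-ER, an inducible Cre driven by the keratin 14 promoter of basal keratinocytes. All of these mice received an inhibitor of Smo by mouth. The ASZ001 libraries are 3 from cells given CCG-1423, 3 from cells given vismodegib and 3 from cells given vehicle. CCG-1423 is an inhibitor of signalling through the SRF coactivators MRTF, and vismodegib inhibits Smo, the receptor protein that switches on the Hedgehog pathway. The sources used here give no doses, treatment times or ages, and do not say whether replicates came from separate animals or cultures. The p-values therefore measure only the spread between these libraries, which may be technical.

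The receptors of this family are tyrosine kinases that sit in the cell membrane and act as pairs. Egfr binds several ligands directly, Erbb2 has no known ligand of its own and serves as the favoured partner of the other receptors, and Erbb3 has little kinase activity and recruits PI3 kinase when phosphorylated by its partner. The ligands are made as membrane-bound precursors that metalloproteases of the ADAM family cut free. In the epidermis, keratinocytes express both the receptors and several of the ligands, and signalling through Egfr is known for promoting their proliferation and migration and restraining their differentiation.

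Reads at genes numbered 17537094 to 20014426 in the resistant tumours and 8111252 to 14161398 in the sensitive tumours. They numbered 32024887 to 41040633 with CCG-1423, 30455530 to 35561668 with vismodegib and 32192090 to 44017757 with vehicle. Counts of 3 reads corresponded to 2.09 to 4.97 normalized counts in the tumour libraries and 2.45 to 3.40 in the cell libraries. Sensitive tumour 4 stood apart from its group: its profile over all genes had a mean correlation of 0.953 to those of the resistant tumours, against 0.817 to those of sensitive tumours 1 to 3. Its level of the Hedgehog target Ptch1 was 3138 normalized counts, against 1166 to 3392 in the resistant tumours and 165 to 548 in sensitive tumours 1 to 3. Its level of Gli1, another such target, was 1976, against 1456 to 3541 in the resistant tumours and 532 to 649 in sensitive tumours 1 to 3. Reads of the Y-linked gene Kdm5d were present in sensitive tumours 1 to 3 (607.5 to 881 normalized counts) and were 0 in all other tumours, so that without sensitive tumour 4 the sex of the mice and the tumour group cannot be told apart. Tumour results are therefore given with and without this library. Trp53 was read at 365 to 698 normalized counts in resistant tumours and 346 to 651 in sensitive tumours, and counts per gene do not resolve the floxed exons. The values carry no correction for transcript length, and each table was normalized on its own, so levels are compared neither between genes nor between the 2 tables.

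The comparison of CCG-1423 with vehicle asks how the family responds when MRTF and SRF signalling is inhibited in resistant cells. Ligand transcripts and Egfr were higher and Erbb2 was lower in CCG-1423-treated cells. Of the 9 members, 7 rose (Egfr, Erbb3, Tgfa, Hbegf, Areg, Ereg and Egf), 1 fell (Erbb2) and Btc did not pass the test, which was limma's moderated test adjusted over all tested genes at 0.05. The background for these counts is broad, since 85.3% of the 12775 tested genes passed, 42.8% higher and 42.6% lower. A rise of at least 2-fold was called for 4 members (Hbegf, Areg, Ereg and Egf), against 11.7% of tested genes. The median log2 fold change was 0.96 over the 9 members and 0.00 over all tested genes. Areg and Egf reached the minimum of 10 normalized counts for testing only through the CCG-1423 libraries, so their being tested already required a higher level there. Both are counted among the 7 and the 4 and enter the median, but their values are given below with no p.

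Among the receptors, Egfr had 7676, 9967 and 9343 normalized counts with CCG-1423, 5088, 4936 and 4795 with vismodegib and 4601, 4520 and 4669 with vehicle. Every CCG-1423 library lay above every other library, and the vismodegib libraries lay just above the vehicle libraries without overlapping them. Against vehicle, Egfr rose in CCG-1423-treated cells by a log2 fold change of 0.96 ± 0.07 (SE, n = 3 per group; limma adjusted p = 1.2e-09). Erbb2 had 2980, 2955 and 2986 normalized counts with CCG-1423, 5874, 5732 and 5767 with vismodegib and 5880, 5798 and 5701 with vehicle. The 3 CCG-1423 libraries were nearly level with each other and lay well under the other 6. The log2 fold change of Erbb2 in CCG-1423-treated cells against vehicle was -0.96 ± 0.03 (adjusted p = 3.2e-14), and 15.3% of tested genes fell by at least 2-fold, a size that Erbb2 came just short of. Erbb3 had 2780, 2649 and 2521 normalized counts with CCG-1423, 2231, 2324 and 2333 with vismodegib and 2313, 2266 and 2267 with vehicle. Its groups did not overlap between CCG-1423 and vehicle, but the log2 fold change was small, 0.21 ± 0.04 (adjusted p = 8.0e-05), and 39.8% of tested genes had a larger one.

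**Figure D1:**
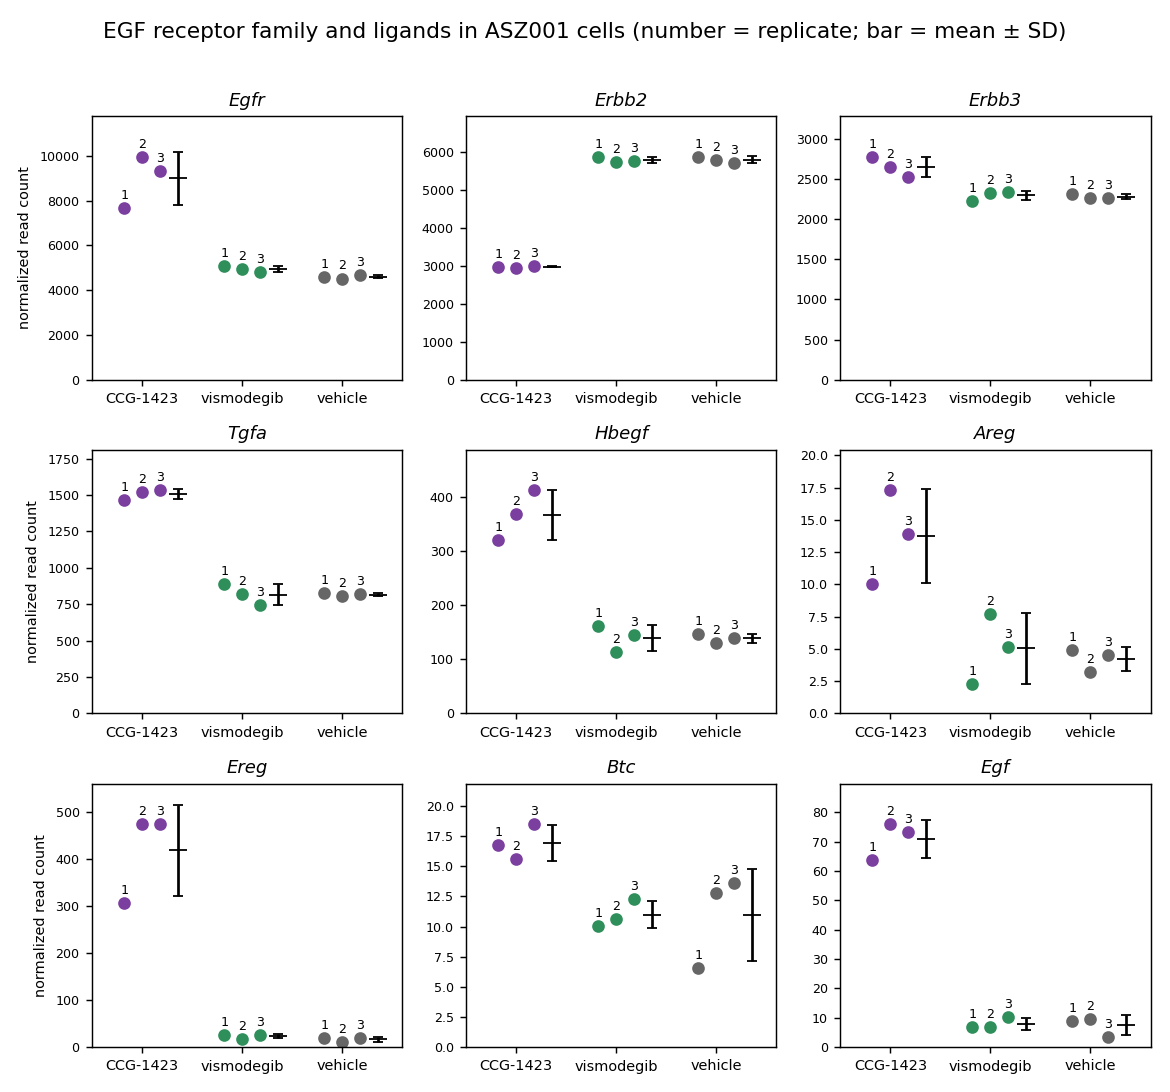
Normalized counts of the 9 members in every ASZ001 library, with 1 panel per gene and the groups CCG-1423, vismodegib and vehicle along the horizontal axis. Points are libraries numbered by replicate and bars are the mean ± SD (n = 3). Egfr, Erbb3 and 5 ligands are higher and Erbb2 is lower in all CCG-1423 libraries, and in the Btc panel the lowest CCG-1423 library (15.6) is above the highest vehicle library (13.6) by a small margin.

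Since Egfr and Erbb2 moved in opposite directions, the number of Egfr reads per Erbb2 read differed between treatments. It was 2.58, 3.37 and 3.13 with CCG-1423, 0.866, 0.861 and 0.831 with vismodegib and 0.782, 0.780 and 0.819 with vehicle. The means were 3.03 ± 0.409 with CCG-1423, 0.853 ± 0.0189 with vismodegib and 0.794 ± 0.0219 with vehicle (SD, n = 3 each). Because the reads of each gene scale with its length, only the difference between treatments can be read from this ratio, not which transcript was the more abundant. The same ratio in the tumours was 5.79, 5.04, 5.62 and 5.83 in resistant tumours and 5.15, 3.36, 4.48 and 5.13 in sensitive tumours. The tumour groups overlapped, with resistant tumour 2 below sensitive tumours 1 and 4.

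**Figure D2:**
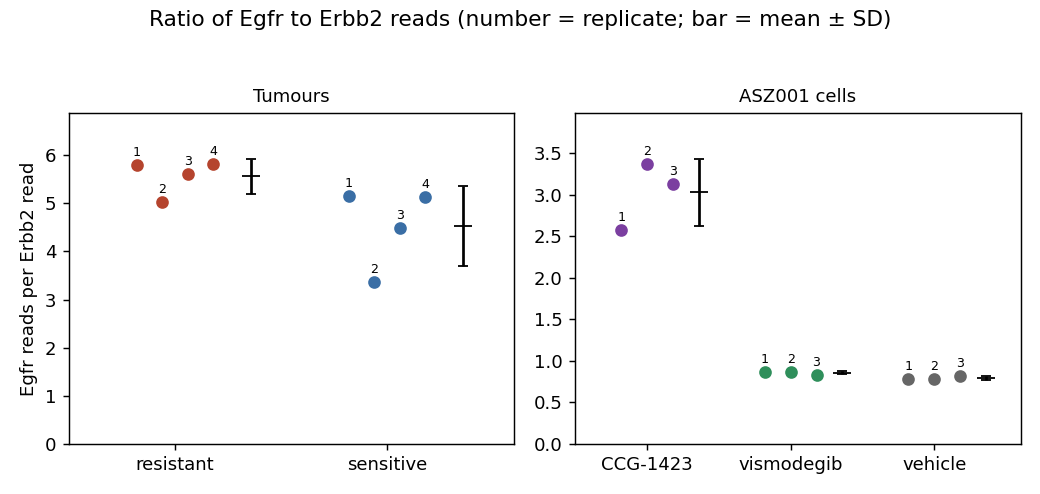
Egfr reads per Erbb2 read in each library, tumours on the left and ASZ001 cells on the right. Points are libraries numbered by replicate and bars are the mean ± SD; the CCG-1423 libraries lie at 2.58 to 3.37 and all vismodegib and vehicle libraries below 0.9, while the resistant and sensitive tumours overlap.

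Among the ligands of Egfr, Tgfa, which is a major autocrine ligand of keratinocytes, had 1464, 1524 and 1534 normalized counts with CCG-1423, 888, 819 and 741 with vismodegib and 823, 804 and 819 with vehicle. The CCG-1423 libraries lay above all others, and the vismodegib values spread around those of vehicle. Tgfa rose in CCG-1423-treated cells against vehicle by a log2 fold change of 0.89 ± 0.06 (adjusted p = 5.2e-10). Hbegf encodes a heparin-binding ligand that is induced at wound edges. It had 319.6, 368 and 413 normalized counts with CCG-1423, 161, 114 and 144 with vismodegib and 147, 129.8 and 139 with vehicle. Again the CCG-1423 libraries were apart from the rest, and Hbegf rose by 1.39 ± 0.13 on the log2 scale (adjusted p = 3.8e-08), with 6.55% of tested genes above it.

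Ereg, whose product epiregulin binds Egfr and Erbb4, had the largest fold change of the 9 members in this comparison. It had 306, 475 and 476 normalized counts with CCG-1423, 24.6, 17.4 and 25.5 with vismodegib and 19.6, 10.6 and 19.2 with vehicle. The lowest CCG-1423 library was more than 10 times as high as any vismodegib or vehicle library. The log2 fold change against vehicle was 4.60 ± 0.24 (24.3-fold; adjusted p = 4.6e-11), and 0.235% of tested genes had a larger rise. Egf, the ligand that gave the family its name, had 63.7, 76.1 and 73.2 normalized counts with CCG-1423, 6.71, 6.77 and 10.2 with vismodegib and 8.98, 9.58 and 3.40 with vehicle. Vehicle and vismodegib values of Egf rested on 3 to 11 reads per library and overlapped. Egf was higher in CCG-1423-treated cells by 3.21 ± 0.33 on the log2 scale (9.28-fold). No p or rank is given, because Egf was tested only through its CCG-1423 values.

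Areg and Btc were read only sparsely in these cells. Areg, which encodes amphiregulin, had 10.1, 17.3 and 13.9 normalized counts with CCG-1423, 2.24, 7.74 and 5.11 with vismodegib and 4.90, 3.19 and 4.53 with vehicle. These values came from 9 to 20 reads per CCG-1423 library, 2 to 8 per vismodegib library and 3 to 6 per vehicle library. The log2 fold change of Areg between CCG-1423 and vehicle was 1.49 ± 0.43. No p is given, because Areg was tested only through its CCG-1423 values. Btc, which encodes betacellulin, had 16.8, 15.6 and 18.5 normalized counts with CCG-1423, 10.1, 10.6 and 12.3 with vismodegib and 6.53, 12.8 and 13.6 with vehicle. Its log2 fold change between CCG-1423 and vehicle was 0.64 ± 0.31 (adjusted p = 0.0660, 95% interval -0.02 to 1.31). Without vehicle replicate 3 the value for Btc was 0.81 with an adjusted p of 0.0412, so its call depended on that library.

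Within the CCG-1423 group the libraries were not alike. Replicate 1 had the lowest value of the 3 for Egfr, Tgfa, Hbegf, Areg, Ereg and Egf, that is for 6 of 9 members, and it was the lowest of its group for 41.8% of all tested genes. Leaving out any single CCG-1423 or vehicle library left 8 or 9 members called against vehicle. In these fits 10619 to 10947 genes passed over all genes, of 12874 to 12920 tested. Areg and Egf, tested only through the CCG-1423 libraries, are counted among these members. The calls for Egfr, Erbb2, Erbb3, Tgfa, Hbegf and Ereg were the same with edgeR and with DESeq2 run on whole reads recovered from the table.

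The treated cells also differed in their cell type markers. All 5 basal keratinocyte markers were detected in each group, and their summed level was 257728 to 268278 normalized counts with CCG-1423, 1253008 to 1278800 with vismodegib and 1280654 to 1312279 with vehicle. The 4 markers of differentiated keratinocytes summed to 283 to 331 with CCG-1423, 616 to 719 with vismodegib and 681 to 710 with vehicle. Most of each sum was Krt10. Lor went the other way, with 56.6 to 62.3 with CCG-1423, 40.3 to 55.2 with vismodegib and 47.4 to 53.2 with vehicle. Of other cell types, the 5 T cell markers summed to at most 4.47 in any library, and the 4 mast cell markers were all at 0 with vehicle. The 4 endothelial markers, nearly all Pecam1, summed to 270.4 to 318 with CCG-1423, 669 to 795 with vismodegib and 889.6 to 913 with vehicle. Of the 6 fibroblast markers, summing to 97.8 to 125 with CCG-1423, 167 to 185 with vismodegib and 176 to 205 with vehicle, Lum was at 0 in all 3 groups. Col1a1 went against the sum, with 16.7 to 25.7 with CCG-1423, 5.59 to 7.74 with vismodegib and 4.08 to 7.45 with vehicle. The 5 macrophage markers summed to 778 to 942 with CCG-1423, 386 to 464 with vismodegib and 413 to 461 with vehicle, nearly all of it Cd68, which had 774 to 936 with CCG-1423, 364 to 443 with vismodegib and 393 to 441 with vehicle. Csf1r, by contrast, had 2.23 to 4.33 with CCG-1423, 21.3 to 29.1 with vismodegib and 19.2 to 19.6 with vehicle, and Lyz2, Emr1 and Mrc1 were at most 1.85 in any library. Of the Hedgehog targets, Gli1 had 319 to 409 with CCG-1423, 229 to 272 with vismodegib and 1100 to 1304 with vehicle. Ptch1 had 494 to 655 with CCG-1423, 268 to 290 with vismodegib and 305 to 332 with vehicle, and Hhip was at most 1.93. The part of these marker levels in the results for the EGF family was not tested.

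Where the members lie in the genome was taken from RefSeq. Areg, Ereg and Btc are neighbours on chromosome 5, in the protein-coding order Mthfd2l, Epgn, Ereg, Areg, Btc and Parm1, while Egfr and Erbb2 lie on chromosome 11, Erbb3 on 10, Tgfa on 6, Hbegf on 18 and Egf on 3. Along this stretch of chromosome 5 the responses to CCG-1423 were uneven. Epgn, which encodes the Egfr ligand epigen, averaged 664 normalized counts with CCG-1423, 138 with vismodegib and 152 with vehicle. Ereg beside it averaged 419 with CCG-1423, 22.5 with vismodegib and 16.5 with vehicle. Areg averaged 13.8 with CCG-1423, 5.03 with vismodegib and 4.21 with vehicle, and Btc 16.96 with CCG-1423, 10.99 with vismodegib and 10.96 with vehicle. The flanking Mthfd2l averaged 443 with CCG-1423, 329 with vismodegib and 340.1 with vehicle, and Parm1 averaged 1065 with CCG-1423, 1783 with vismodegib and 2233 with vehicle.

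Promoter sequences from RefSeq, running from 250 bases before to 50 bases after a start on the build GRCm38.p6, were matched by symbol for 6 of the 9 members (Egfr, Erbb2, Tgfa, Areg, Btc and Egf), with 7 starts in all because Egf has 2. Ereg, Erbb3 and Hbegf had no entry. Shown here are the promoters of Egfr and Erbb2, the receptors that moved in opposite directions with CCG-1423, of Egf, the matched ligand with the largest rise, and of Areg, which alone of the 6 held a searched motif. Matches are in capitals. The Areg promoter lies at chr5:91139349-91139648 on the + strand, Egf at chr3:129755273-129755572 on the - strand, Egfr at chr11:16751953-16752252 on the + strand and Erbb2 at chr11:98412234-98412533 on the + strand.
Areg: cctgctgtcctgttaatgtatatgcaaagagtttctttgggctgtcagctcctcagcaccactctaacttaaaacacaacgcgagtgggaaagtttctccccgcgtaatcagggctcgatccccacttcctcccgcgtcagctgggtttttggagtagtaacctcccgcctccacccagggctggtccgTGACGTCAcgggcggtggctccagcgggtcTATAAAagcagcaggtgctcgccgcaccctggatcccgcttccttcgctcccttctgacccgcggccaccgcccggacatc
Egf: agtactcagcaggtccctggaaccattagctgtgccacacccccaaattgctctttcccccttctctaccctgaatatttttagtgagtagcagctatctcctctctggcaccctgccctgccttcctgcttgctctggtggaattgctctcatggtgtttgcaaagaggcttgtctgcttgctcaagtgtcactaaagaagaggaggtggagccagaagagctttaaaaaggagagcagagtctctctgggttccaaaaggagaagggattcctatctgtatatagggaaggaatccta
Egfr: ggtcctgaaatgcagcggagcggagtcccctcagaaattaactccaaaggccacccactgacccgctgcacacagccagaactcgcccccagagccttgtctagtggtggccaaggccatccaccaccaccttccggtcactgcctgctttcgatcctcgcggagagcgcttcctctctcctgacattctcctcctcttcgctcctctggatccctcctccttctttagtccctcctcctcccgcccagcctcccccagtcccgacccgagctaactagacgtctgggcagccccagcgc
Erbb2: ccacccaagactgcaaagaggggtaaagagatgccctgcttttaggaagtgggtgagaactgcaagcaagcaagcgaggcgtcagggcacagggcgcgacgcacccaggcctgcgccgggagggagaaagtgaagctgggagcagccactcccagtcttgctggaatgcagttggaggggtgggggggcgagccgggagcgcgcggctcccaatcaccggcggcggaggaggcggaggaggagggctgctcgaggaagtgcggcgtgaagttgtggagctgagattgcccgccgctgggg

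The motifs searched on both strands were the AP-1 motif TGANTCA, the CRE motif TGACGTCA, the CArG box of SRF, the composite motif of C/EBP and ATF proteins TGATGNAA, and TATAAA. The Areg promoter held TGACGTCA at -61 to -54 and TATAAA at -31 to -26 relative to the start, and these matches do not overlap. Of the 32544 promoters in the RefSeq table, 1.80% held the CRE motif, 13.6% TATAAA, 7.79% the AP-1 motif, 3.91% the composite motif and 1.64% a CArG box. The other 6 promoters held no match to any of the 5, which says only that these letters are not in these windows. A match is a description of the sequence and not a site shown to be bound.

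Vismodegib was compared with vehicle to ask whether inhibiting Smo alone changes the family in cells that the labels describe as resistant. The Hedgehog target Gli1 was lower with vismodegib in these cells, as given above. None of the 9 members passed the test, with 0 called by limma, 0 by edgeR and 0 by DESeq2. In limma 0 members had an unadjusted p below 0.05, beside 2357 of 12775 tested genes. DESeq2 gave no adjusted p for Areg, Btc and Egf. In this comparison 5.5% of tested genes passed, 1.58% higher and 3.92% lower. The intervals of the differences were narrow for the well-read members. The 95% interval of the log2 fold change was -0.06 to 0.06 for Erbb2, -0.07 to 0.09 for Erbb3, -0.12 to 0.12 for Tgfa and -0.27 to 0.27 for Hbegf. For Egfr the log2 fold change was 0.10 ± 0.07 (adjusted p = 0.444, interval -0.04 to 0.24). That fit uses 1 spread for all 9 libraries, but the SD of Egfr was unequal, 1184 with CCG-1423, 147 with vismodegib and 74.4 with vehicle. In a limma fit of the vismodegib and vehicle libraries alone Egfr passed, with an adjusted p of 0.0118, beside 1721 of 12440 tested genes. Ereg averaged 22.5 ± 4.45 normalized counts with vismodegib and 16.5 ± 5.07 with vehicle (SD, n = 3 each). Its log2 fold change was 0.46 ± 0.24 (adjusted p = 0.345, interval -0.06 to 0.97), and its groups overlapped. The intervals for the sparsely read ligands were wide, -0.80 to 1.03 for Areg, -0.61 to 0.72 for Btc and -0.53 to 0.89 for Egf.

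CCG-1423 and vismodegib were then compared directly. This comparison shares the CCG-1423 libraries with the one against vehicle, so they are not independent. Of the 9 members, 7 rose with CCG-1423 against vismodegib and 1 fell, beside 84.8% of all tested genes called, 42.4% in each direction. Areg and Egf are among the 7, and here too they were tested only through the CCG-1423 libraries. Egfr rose by 0.86 ± 0.07 on the log2 scale (adjusted p = 5.0e-09) and Erbb2 had a log2 fold change of -0.96 ± 0.03 (adjusted p = 3.2e-14). Ereg was 17.7-fold higher with CCG-1423 than with vismodegib, a log2 fold change of 4.15 ± 0.24 (adjusted p = 1.7e-10). Egf was 8.20-fold higher, at 3.04 ± 0.33 on the log2 scale, and no p is given for it. The log2 fold changes of the other members that rose were 0.21 for Erbb3, 0.89 for Tgfa, 1.39 for Hbegf and 1.38 for Areg. Btc had a log2 fold change of 0.58 ± 0.31 (adjusted p = 0.0922).

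**Figure D3:**
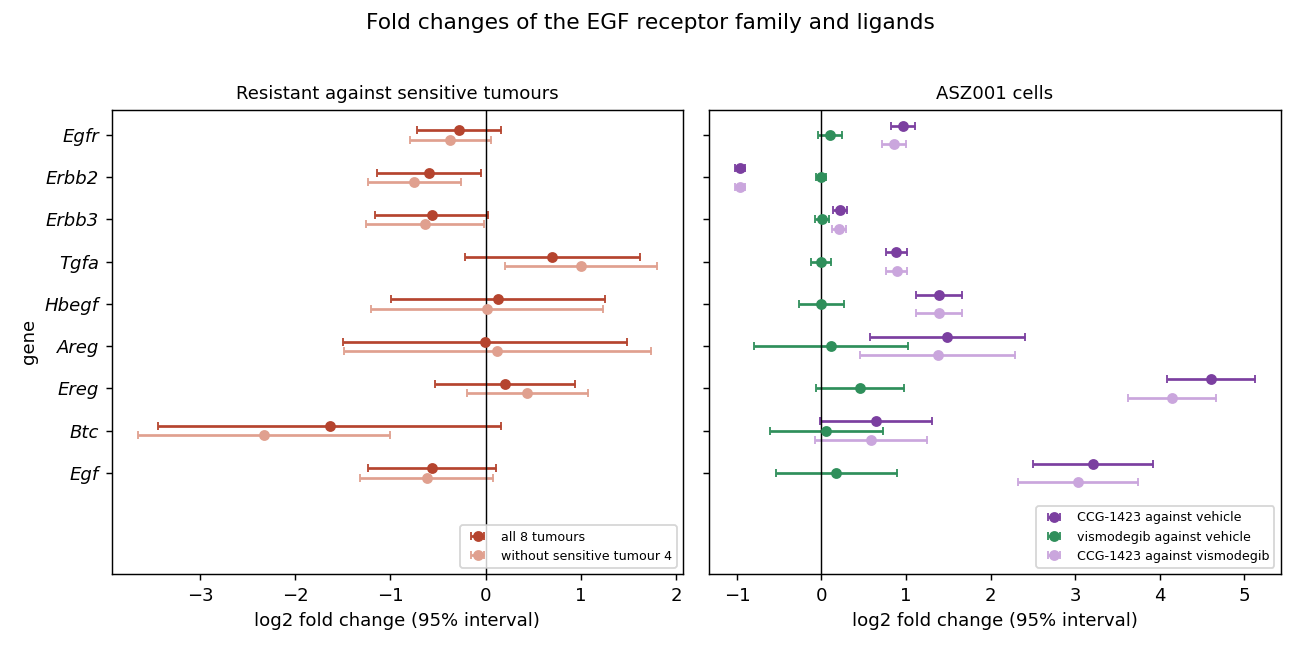
Log2 fold changes of the 9 members with 95% intervals, resistant against sensitive tumours on the left and the 3 comparisons of ASZ001 cells on the right. In the cells the intervals of CCG-1423 lie clear of 0 for all members except Btc, though Areg and Egf were tested only through those libraries. Every vismodegib interval against vehicle spans 0, while in the tumours most intervals span 0.

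The rest of the pathway was read from 5 lists holding 55 genes. Against vehicle, 51 of them were tested in CCG-1423-treated cells, of which 25 rose and 23 fell. These 48 are 94.1% of the 51, beside the 85.3% called over all genes, and no test of that difference was made. The median log2 fold change of the 51 was -0.03. Among the other receptors and ligands of the family, Nrg1 and Epgn rose. Nrg1, encoding a neuregulin that binds Erbb3 and Erbb4, averaged 831 ± 118 normalized counts with CCG-1423 and 147 ± 4.51 with vehicle (log2 fold change 2.48 ± 0.10, adjusted p = 1.2e-12). Epgn rose by 2.13 ± 0.11 on the log2 scale (adjusted p = 4.5e-11). Nrg2, encoding another neuregulin, averaged 25.5 ± 9.79 with CCG-1423, 8.69 ± 2.18 with vismodegib and 5.61 ± 2.37 with vehicle. It reached the minimum for testing only through the CCG-1423 libraries, so its values are given with no p. It is nevertheless counted among the 25 that rose. The remaining genes of that list were below the minimum for testing, and Erbb4, the remaining receptor of the family, lay between 0 and 6.39 normalized counts in the cell libraries.

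The counts that follow for each list stand against 42.8% of all tested genes higher and 42.6% lower with CCG-1423, and nothing particular to a list can be read from them. In the list of ligand shedding, 4 of 8 tested genes rose and 3 fell. Rhbdf2 and Rhbdf1, which encode the iRhom proteins that carry Adam17 to the cell surface, rose by 1.54 ± 0.04 and 1.30 ± 0.04 on the log2 scale. Timp3, an inhibitor of Adam17, rose by 1.41 ± 0.04. Adam17 itself, the main protease that frees Tgfa, Areg, Hbegf and Ereg, had a log2 fold change of -0.40 ± 0.06, Adam10, which cuts Egf and Btc, -0.18 ± 0.04, and Adam15 -1.25 ± 0.03. The highest adjusted p among these 6 genes was 0.000295, for Adam10.

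In the list of adaptors and the Ras-MAPK cascade, 9 of 18 tested genes rose and 8 fell. Sos2, an exchange factor that activates Ras, rose by 0.88 ± 0.04, and Nf1, which switches Ras off, by 0.91 ± 0.05. The kinase Araf had a log2 fold change of -1.45 ± 0.05. Map2k2 and Hras had log2 fold changes of -0.76 ± 0.03 and -0.64 ± 0.03. In the PI3 kinase arm 2 of 8 genes rose and 6 fell. Pik3ca, a catalytic subunit, rose by 0.48 ± 0.04 and Pdpk1, a kinase that activates Akt, by 0.16 ± 0.03. The regulatory subunits Pik3r2 and Pik3r1 had log2 fold changes of -0.81 ± 0.03 and -0.62 ± 0.03, and the kinase Akt1 -0.76 ± 0.03. In the list of receptor inhibitors and receptor turnover, 7 of 14 genes rose and 6 fell. Lrig1 and Lrig2, encoding membrane proteins of a family of receptor inhibitors, rose by 0.97 ± 0.05 and 1.03 ± 0.05, and Stam, part of the endosomal machinery that sorts receptors for degradation, by 1.08 ± 0.04. Among those that fell, Rnf41, a ubiquitin ligase for Erbb3, had a log2 fold change of -0.45 ± 0.03, Cblb, a ubiquitin ligase for Egfr, -0.25 ± 0.03 and the phosphatase Ptpn1 -0.24 ± 0.03. Errfi1, a feedback inhibitor of the Egfr kinase that was picked out after its value was seen, rose by 0.94 ± 0.06 (adjusted p = 5.4e-10).

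With vismodegib against vehicle, 2 of the 51 tested genes passed, or 3.92%, beside 5.5% of all tested genes. Adam15 rose by 0.12 ± 0.03 (adjusted p = 0.0479) and Cblb had a log2 fold change of -0.16 ± 0.03 (adjusted p = 0.00708). This count was unstable, as was the count over all genes. It was 10 with libraries scaled to their total reads, where 3229 of 12775 tested genes passed. It was 7 in a fit of the 2 groups alone, where 1721 of 12440 passed. When any single vehicle or vismodegib library was left out it was 0 to 1, beside 325 to 498 over all genes. Against vismodegib rather than vehicle, 25 of the 51 genes rose and 22 fell with CCG-1423, or 92.2%, beside 84.8% of all tested genes. Nrg2 is again counted among the 25. Nrg1 rose in that comparison by 2.30 and Epgn by 2.26 on the log2 scale.

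**Figure D4:**
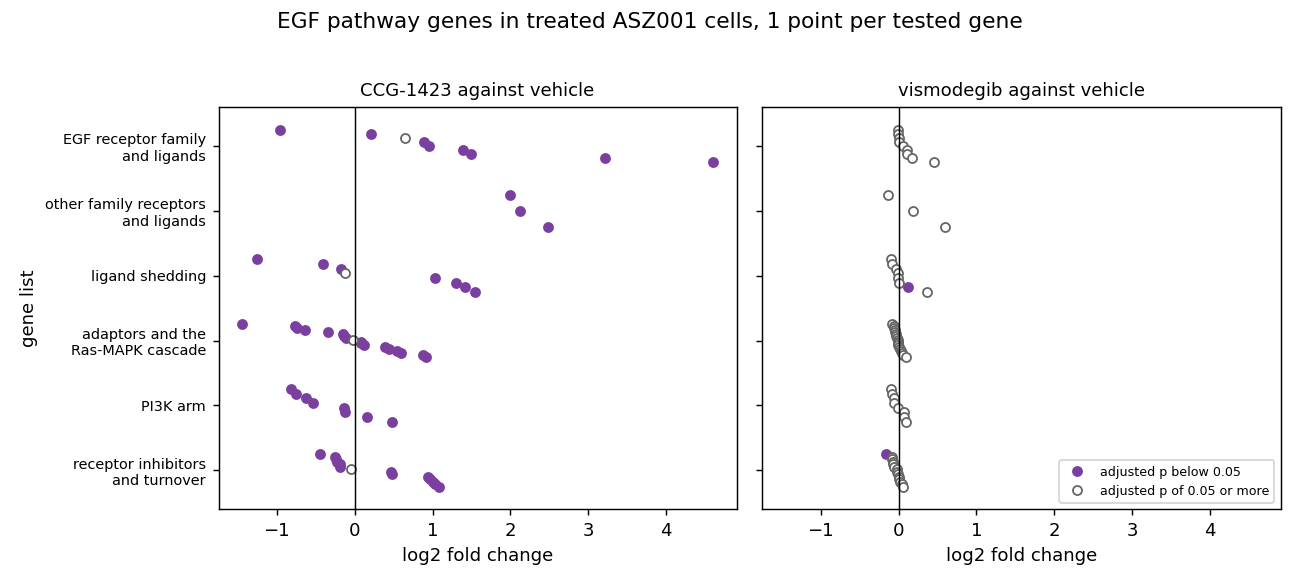
Log2 fold changes of the tested genes of the EGF pathway in ASZ001 cells, CCG-1423 against vehicle on the left and vismodegib against vehicle on the right, with 1 row of points per gene list and filled points for an adjusted p below 0.05. The 3 tested genes among the other receptors and ligands lie at 1.99 to 2.48 with CCG-1423, the lowest being Nrg2, tested only through those libraries. The longer lists spread to both sides of 0, and with vismodegib 2 points are filled.

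Resistant and sensitive tumours were compared to ask whether the family differs with the response to Smo inhibition in vivo. With all 8 tumours, 0 of 9 members passed in limma, 0 in edgeR and 0 in DESeq2, while 0.113% of the 15076 tested genes passed in limma, 0.0332% higher and 0.0796% lower. DESeq2 gave no adjusted p for Btc. At an unadjusted p below 0.05 in limma there was 1 member, Erbb2, beside 3789 of the 15076 tested genes. The median log2 fold change of the members was -0.28 and that of all tested genes 0.03. Without sensitive tumour 4, 2 members were lower in resistant tumours, Erbb2 and Btc, beside 40% of 15479 tested genes called, 20.6% higher and 19.4% lower. In that fit the sensitive tumours, where Btc was high, were by themselves enough to meet the minimum for testing it. Tumour samples are mixtures of cells, so fewer cells of a type and less RNA per cell cannot be told apart.

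Egfr had 7377, 5933, 6439 and 6486 normalized counts in resistant tumours 1 to 4, against 6906, 7786, 11224 and 6581 in sensitive tumours 1 to 4. The groups overlapped, sensitive tumour 3 was the highest, and the log2 fold change was -0.28 ± 0.20 (adjusted p = 0.371, interval -0.72 to 0.16). Erbb2 had 1274, 1178, 1146 and 1113 normalized counts in resistant tumours and 1340, 2314, 2506 and 1283 in sensitive tumours. Every resistant tumour lay below every sensitive tumour, but sensitive tumours 1 and 4 were close to the resistant ones and sensitive tumours 2 and 3 far above them. The log2 fold change of Erbb2 was -0.59 ± 0.24 (adjusted p = 0.176) with all tumours and -0.75 ± 0.21 (adjusted p = 0.0237) without sensitive tumour 4. Erbb3 had 450.3, 206, 263 and 232 normalized counts in resistant tumours, against 391, 504, 397 and 349.7 in sensitive tumours. Resistant tumour 1 lay among the sensitive tumours and the other resistant tumours below them, and the log2 fold change was -0.57 ± 0.26 (adjusted p = 0.211).

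**Figure D5:**
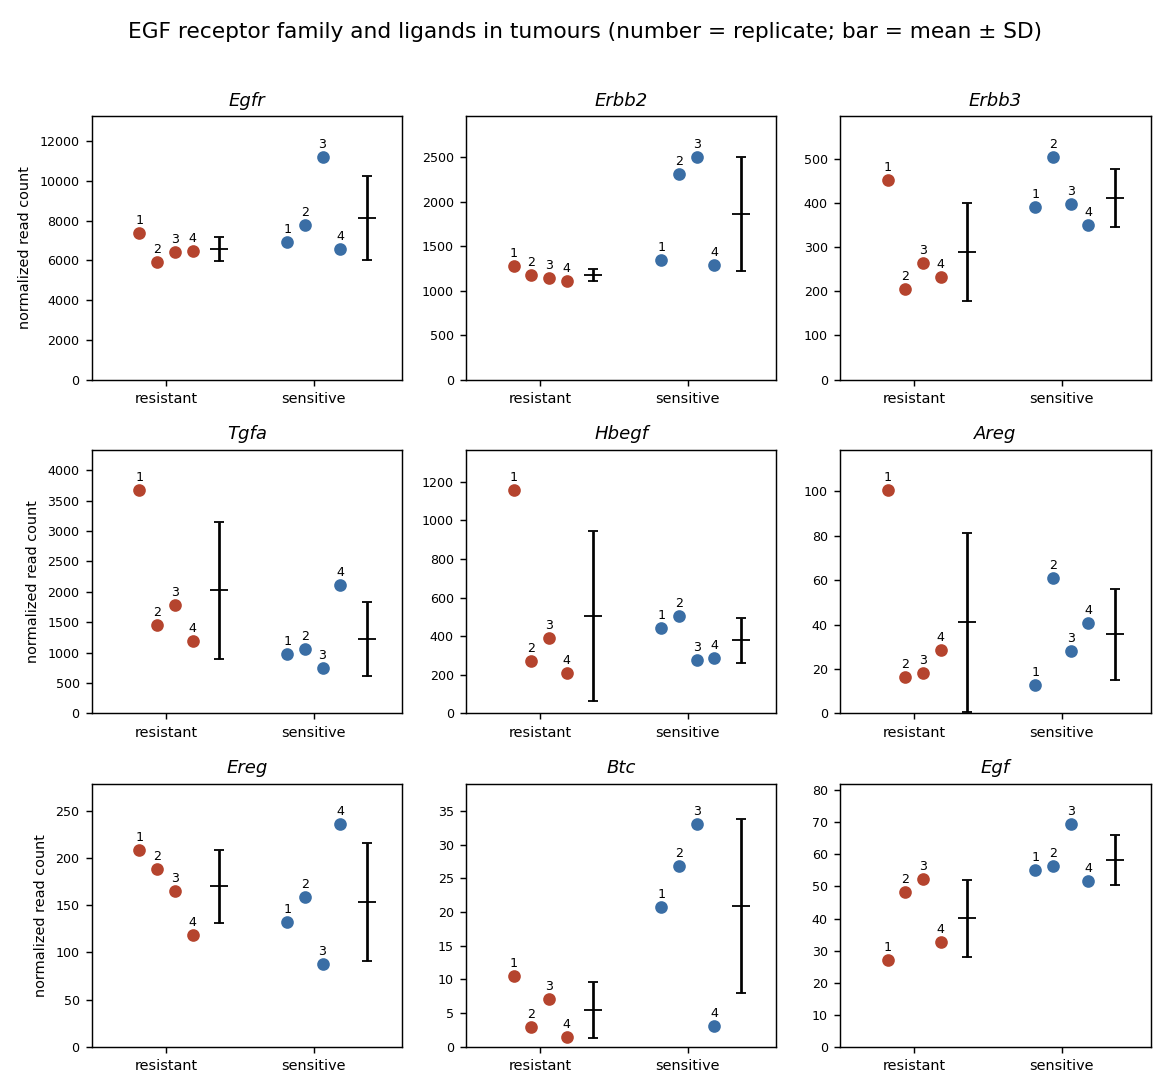
Normalized counts of the 9 members in every tumour library, with 1 panel per gene and resistant tumours left of sensitive ones. Points are tumours numbered by replicate and bars are the mean ± SD (n = 4). Resistant tumour 1 is the highest of its group in 8 panels, and sensitive tumour 4 is apart from the other sensitive tumours for Btc (3.04) and Tgfa (2111).

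Tgfa had 3672, 1446, 1782 and 1195 normalized counts in resistant tumours and 979.5, 1060 and 744 in sensitive tumours 1 to 3, with 2111 in sensitive tumour 4. All resistant tumours were above sensitive tumours 1 to 3, and sensitive tumour 4 was above 3 of the resistant tumours. The log2 fold change of Tgfa was 0.70 ± 0.41 (adjusted p = 0.292) with all tumours and 0.999 ± 0.35 (adjusted p = 0.0504) without sensitive tumour 4. Without resistant tumour 1 it was 0.36 (adjusted p = 0.550). Without sensitive tumour 4, Tgfa did not pass in limma but passed in edgeR and in DESeq2. These called 3 members each, Tgfa, Erbb2 and Btc, beside 39.3% of all tested genes in edgeR and 43.9% in DESeq2. Btc had 10.5, 2.96, 7.13 and 1.40 normalized counts in resistant tumours, against 20.7, 26.8, 33.1 and 3.04 in sensitive tumours. These came from 2 to 12 reads per resistant tumour and 3 to 20 per sensitive tumour, and it was sensitive tumours 1 to 3, with 18 to 20 reads, that stood out. The log2 fold change of Btc was -1.64 ± 0.80 (adjusted p = 0.229) with all tumours and -2.33 ± 0.58 without sensitive tumour 4. With all tumours Btc was tested only because it reached 10 normalized counts in those 3 sensitive tumours and in resistant tumour 1. Without sensitive tumour 4 those 3 sensitive tumours were by themselves enough to meet the minimum, so no p is given for that fit.

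Egf had 27.1, 48.1, 52.3 and 32.8 normalized counts in resistant tumours and 55.3, 56.5, 69.6 and 51.7 in sensitive tumours. Only resistant tumour 3 overlapped the sensitive range, and the log2 fold change was -0.57 ± 0.30 (adjusted p = 0.253). Hbegf had 1157, 269, 389 and 207 normalized counts in resistant tumours, against 444, 504, 277 and 285 in sensitive tumours. Areg had 101, 16.3, 18.2 and 28.6 in resistant tumours and 12.7, 60.8, 28.2 and 40.5 in sensitive tumours. For both genes resistant tumour 1 was far above the rest of its group, and the groups overlapped. Their log2 fold changes were 0.13 ± 0.50 for Hbegf (adjusted p = 0.881) and -0.01 ± 0.66 for Areg (adjusted p = 0.995). Ereg had 208, 188, 165 and 119 normalized counts in resistant tumours and 132, 158, 87.8 and 236 in sensitive tumours. Its groups overlapped, and its log2 fold change was 0.20 ± 0.32 (adjusted p = 0.697). The 95% intervals were -0.998 to 1.25 for Hbegf and -1.50 to 1.48 for Areg, so a 2-fold difference in at least 1 direction lies within them. For Ereg the interval was -0.53 to 0.94, which stops just short of 2-fold.

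The spread within the resistant group had a common direction. Resistant tumour 1 was the highest of the 4 for 8 members, all except Egf, for which it was the lowest, while it was the highest for 27.2% of all tested genes. Among the resistant tumours it also had the highest summed level of the differentiated keratinocyte markers, 616 of a range of 191 to 616 normalized counts. Most of that sum was Ivl, which ranged from 69.1 to 465 in resistant tumours. Ivl, Lor and Krt1 were highest in resistant tumour 1, but Krt10, which ranged from 65.9 to 116, was not. The skeletal muscle markers also summed highest there, to 371 normalized counts against 57.8, 3.17 and 3.49 in resistant tumours 2 to 4. The macrophage markers of resistant tumour 1 summed to 6557, close to the 6791 of resistant tumour 3, against 19154 in resistant tumour 2 and 79650 in resistant tumour 4. Sensitive tumour 4 was the lowest of its group for Egfr, Erbb2, Erbb3, Btc and Egf, a place it took for 39.0% of all tested genes. It was the highest for Tgfa and Ereg, as it was for 41.6% of tested genes. The basal keratinocyte markers summed to 26923 to 78858 normalized counts in resistant tumours and 73092 to 215832 in sensitive tumours. The neutrophil markers summed to 5716 to 8737 in resistant tumours, 15784 in sensitive tumour 4 and 626 to 1037 in sensitive tumours 1 to 3. The part of these cell types in the values of the EGF family was not tested.

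Of the 55 other pathway genes, 52 were tested with all 8 tumours and 0 passed in limma or edgeR. In limma 13 of the 52 had an unadjusted p below 0.05, beside 3789 of all 15076 tested genes. DESeq2 called 4, beside 10.9% of all tested genes. Without sensitive tumour 4, 13 of 53 tested genes were higher and 4 lower in resistant tumours, beside the 20.6% and 19.4% given above. Nrg1 averaged 370 ± 307 normalized counts in resistant tumours and 42.8 ± 9.59 in sensitive tumours 1 to 3 (log2 fold change 2.81 ± 0.50, adjusted p = 0.00309). Erbb4 is among the 13, but it reached the minimum for testing, here 10 normalized counts in 3 libraries, only through the resistant tumours, so its values are given with no test. It averaged 26.6 ± 17.5 in resistant tumours, with a range of 1.59 to 41.9, and 1.02 ± 0.894 in sensitive tumours 1 to 3. With the minimum kept at 4 libraries, Erbb4 was not tested and 12 genes were higher and 4 lower. Rhbdf2 was higher by 2.40 ± 0.31, and the metalloproteases Adam12 and Adam19 by 1.62 ± 0.31 and 1.28 ± 0.33. Of the MAPK cascade, Nf1 and Map2k1 were higher in resistant tumours, by 0.71 and 0.77, and Mapk3 and Braf had log2 fold changes of -0.76 and -0.47. In the PI3 kinase arm Pik3r2 was lower, at -0.59. Of the inhibitors and turnover genes, Lrig3 was higher by 1.66 ± 0.20, Cbl by 0.59 ± 0.15 and Socs5 by 0.69 ± 0.18. None of these genes passed in limma with sensitive tumour 4 in the fit.

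For 3 members, the genes with the most similar profile were looked up by Pearson's r on log2 values, among genes with a mean of at least 50 normalized counts. These r describe libraries that share groups and depth, and no p is given. Over the 9 cell libraries Egfr was most like Tceb3 (r = 0.998), Stk38l (0.998) and Rps27a (0.997). Erbb3 was most like Ptpn9 (0.987), Ezh1 (0.985) and Bri3bp (0.985) in the cells, and Areg most like Rab10os (0.970), Bnip1 (0.970) and Fam221a (0.962). Over the 8 tumours Egfr was most like Mat2a (0.967), Slc1a4 (0.959) and Exosc10 (0.956). Erbb3 was most like Rnf165 (0.979), Otud3 (0.978) and Rabep1 (0.959), and Areg most like Ppwd1 (0.931), Ocln (0.922) and Zswim4 (0.921). No gene named for a member in the cells was named for it in the tumours.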

How the data were processed

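RNA libraries of 8 tumours and 9 ASZ001 cell samples were analysed; 8 exome samples were not analysed here. The deposited signal values are normalized read counts per gene, and their values show that the authors divided whole reads by 1 size factor per library, separately in each table. The submitters' processing notes name TopHat, DESeq and mm9 without role or version, and the sources used here do not state strandedness. Reads were recovered from the smallest step of each library, and 100% of values came out whole within 0.01 read. Floors and intervals cover counting error only where they rest on reads.

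Tests used limma 3.58.1 in R 4.3.3 with a variance trend on log2(normalized count + 1). Fold changes are on that scale, which understates those of genes with few reads. Genes were tested if 4 or more tumour libraries, or 3 or more cell libraries, reached 10 normalized counts. That number is the size of the smallest group in a fit, so it was 1 lower in each fit that left out a library. P-values are 2-sided and adjusted by Benjamini-Hochberg over all tested genes at 0.05. All 9 cell libraries entered 1 fit and so share an estimate of the spread, as do the 8 tumours. edgeR 4.0.16 and DESeq2 1.42.0 on recovered reads, total-read scaling, a pseudocount of 0.5, no filter, a replicate block, robust moderation, fits of 2 groups and leaving out each library were alternatives. The count tests without sensitive tumour 4, and limma without it at the unlowered minimum, were added after the data were seen. The limma and edgeR fits were run on simulated data in which no library stood apart from its group, and DESeq2 was not.

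The members, the 5 lists and the tests were chosen with earlier results of these data known. Named genes are all 9 members, up to 3 passing genes of smallest p per direction and list, and the 3 genes of highest r for Egfr, Erbb3 and Areg in each table. The values of some genes that this rule takes are not reported here.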

Additional observations from a re-analysis of the deposited data

Results flagged for a closer look

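Areg in the resistant tumours was set apart because 1 of the 4 values was far from the others: resistant tumour 1 had 101 normalized counts and resistant tumours 2 to 4 had 16.3 to 28.6. Its gap to the nearest value was 0.854 of the group's whole range, above Dixon's 95% critical value of 0.829. It was the only one of the 18 groups of 4 tumours tested, 9 members in resistant and 9 in sensitive tumours, and chance alone marks about 1 in 20 groups. Without resistant tumour 1 the log2 fold change of Areg between resistant and sensitive tumours was -0.57.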

How the results depend on the processing

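Apart from the fits added after the data were seen, the number of members called was the same under all alternatives with 3 exceptions. Leaving out a tumour gave 0 to 2 against 0 with all 8, the 2 being reached without sensitive tumour 4, the fit of vismodegib and vehicle alone gave 1 against 0, and CCG-1423 against vehicle without vehicle replicate 3 gave 9 against 8. Over all genes, 0 to 6184 passed on leaving out a tumour, and 10645 of 12901 passed without vehicle replicate 3. Other pathway genes called in tumours numbered 4 by DESeq2 and 0 to 17 on leaving out a tumour. Without sensitive tumour 4, edgeR called 3 members and 17 other genes, and DESeq2 3 and 19. Limma without it called 2 and 16 with the minimum kept at 4 libraries. With vismodegib the 2 other genes called became 10 under total-read scaling, 7 in the fit of 2 groups, 1 without a filter and 0 to 1 on leaving out a library. Over all genes 703 passed at first, 3229 under total-read scaling, 1721 in the fit of 2 groups and 596 without a filter. Total-read scaling moved the median log2 fold change of all genes in tumours by -0.11 and that of vismodegib against vehicle by 0.0818.

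The replicate block left the members called at 0, 8, 0 and 8 in the tumours, CCG-1423 against vehicle, vismodegib against vehicle and CCG-1423 against vismodegib, and gave 1 other gene called with vismodegib. Libraries sharing a number had deviations correlated at -0.14 to 0.11 in tumours and -0.04 to 0.04 in cells, and a library correlated best with its own number in 2 of 8 and 7 of 18 matches, so the numbers were not taken to pair the samples.

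Values that changed sign were all uncalled. In tumours, Areg was 0.18 in edgeR and 0.18 in DESeq2, and leaving out a tumour gave -0.57 to 0.31 for Areg, -0.39 to 0.44 for Hbegf and -0.0345 to 0.44 for Ereg. With vismodegib, total-read scaling gave 0.0816 for Erbb2, 0.0790 for Tgfa and 0.0798 for Hbegf, and DESeq2 0.00123 for Hbegf. Leaving out a cell library gave -0.0120 to 0.0104 for Erbb2, -0.00319 to 0.0290 for Erbb3, -0.0659 to 0.0646 for Tgfa, -0.11 to 0.14 for Hbegf, -0.21 to 0.50 for Areg, -0.25 to 0.23 for Btc and -0.23 to 0.40 for Egf. The cause of these changes was not tested. Depth limits Areg and Btc in the cells, Egf in the vismodegib and vehicle cells, and Btc in the tumours, with at most 20 reads per library.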
